A study of Mus musculus with 6 samples.

Results

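The MHC class II genes were followed in mouse macrophages given RIP1i or its solvent. The set held 10 genes, found by symbol among the 52459 rows of the deposited gene table, and all 10 were present. They were the classical chains H2-Aa, H2-Ab1 and H2-Eb1, the loading factors H2-DMa, H2-DMb1 and H2-DMb2, their inhibitors H2-Oa and H2-Ob, the invariant chain Cd74 and the transactivator Ciita. The macrophages were grown from the bone marrow of C57BL/6 mice with GM-CSF, and on day 7 of culture either DMSO or RIP1i was added overnight. Each of the 2 groups held 3 libraries of total RNA. The mouse strain, GM-CSF and the growth medium were shared by both groups, and the labels give neither the age of the mice, nor the RIP1i compound, nor its dose. The series title names RIP1 kinase and adaptive immune tolerance in pancreatic cancer, and its design text compares the transcriptome under RIP1i with that of the control.

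MHC class II molecules show peptides from swallowed material to CD4+ T cells. An alpha and a beta chain pair in the endoplasmic reticulum and are held by the invariant chain, which guides them to endosomes, where proteases cut it down to a short stub called CLIP. H2-DM, itself a pair of class II-like chains, exchanges CLIP for a peptide, and H2-O binds H2-DM and restrains it. Ciita is not a DNA-binding protein: it docks on factors that sit on a conserved X box and Y box upstream of these genes, and interferon gamma is its best known inducer. C57BL/6 mice carry a defective H2-Ea gene and so make the I-A molecule from H2-Aa and H2-Ab1 but no I-E molecule, although H2-Eb1 is intact.

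Of the 10 genes, 8 lie within 224.3 kb of chromosome 17 (34092340 to 34316674, GRCm38, which is the mm10 build of the submitters' processing notes; GENCODE M21). The other 2, Cd74 and Ciita, lie elsewhere. The stretches upstream of the start are shown for 4 of the 10 genes. Whether they bear on the levels was not tested. RefSeq promoter sequences (GRCm38.p6) were matched for 7 of the 10 genes in 8 promoters, H2-DMa having 2 of them. Cd74, H2-Ab1 and Ciita were not matched. Each line runs 5′ to 3′ on the gene's own strand from 150 to 21 bases upstream of the start. Capitals mark the Y box as TGATTGG and a form of the X box, with its following bases, as AACNNATGATG.
H2-Aa (chr17:34287844-34287973, minus strand): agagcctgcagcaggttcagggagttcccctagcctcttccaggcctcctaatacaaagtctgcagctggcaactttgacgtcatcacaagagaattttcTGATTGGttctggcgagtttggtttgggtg
H2-Eb1 (chr17:34305717-34305846, plus strand): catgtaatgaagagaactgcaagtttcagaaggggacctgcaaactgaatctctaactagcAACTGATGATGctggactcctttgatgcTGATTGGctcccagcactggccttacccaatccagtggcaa
H2-Ob (chr17:34238755-34238884, plus strand): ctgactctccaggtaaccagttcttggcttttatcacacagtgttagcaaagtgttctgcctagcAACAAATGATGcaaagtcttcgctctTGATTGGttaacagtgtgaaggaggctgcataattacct
H2-DMb2 (chr17:34145099-34145228, plus strand): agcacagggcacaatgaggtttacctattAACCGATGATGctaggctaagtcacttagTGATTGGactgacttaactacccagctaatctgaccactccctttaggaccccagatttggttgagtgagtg

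The letters TGATTGG were found upstream of H2-Aa, H2-Eb1, H2-Ob, H2-DMb1, H2-DMb2 and H2-Oa, 6 of the 7 matched genes. They began 50, 61, 59, 63, 92 and 45 bases upstream of the start, in that order, and each time on the gene's strand. These starts are those of the RefSeq table. For H2-Aa and H2-Eb1 they equal the GENCODE starts, and for the other genes they lie inside the GENCODE gene, by 2 bases in H2-Ob, 39 in H2-Oa, 119 in H2-DMb1, 1942 in H2-DMb2 and 3291 and 5977 in H2-DMa. All motifs were searched over the whole RefSeq promoter sequences, which reach beyond the lines shown on both sides and past the start. Matches of the shorter motifs lay as far out as position -231 in H2-DMa and 40 in H2-DMb1, relative to the start. Of all 32851 such promoter sequences, 7.82% held TGATTGG on either strand. AACNNATGATG was found in 4 of the 7 genes, as AACTGATGATG in H2-Eb1 and H2-DMb1, AACCGATGATG in H2-DMb2 and AACAAATGATG in H2-Ob, against 0.137% of all promoters. In these 4 genes this stretch began 26 to 29 bases before the Y box. The longer Y box was chosen, and this stretch taken as the letters these 4 genes share, after the promoters were read. Their frequency here is thus a description only. The stretch was read only from promoters that hold ATGATG shortly before TGATTGG. Genes that do not match it, such as H2-Aa and H2-Oa, are not thereby shown to lack an X box. Of the shorter motifs, ATTGG, which lies within TGATTGG, was in 7 of 8 promoters (37.4% of all), CCNNGNNAC in 6 of 8 (47.4%), and TGACG in 1 of 8, that of H2-Aa (20.8%), each on either strand. A match gives the letters only and says nothing of which factor was bound in these cells.

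Transcripts of the class II pathway were abundant in both groups. In FPKM (read counts per gene length, scaled per library, as deposited by the authors), Cd74 stood at 2645 ± 271 (SD, n = 6 libraries), the 14th highest of 27262 detected genes. H2-Aa stood at 728 ± 93.3, H2-Ab1 at 608 ± 85.2 and H2-Eb1 at 574 ± 71.3 FPKM, at places 41, 48 and 49. The ranges of these 3 chains overlapped between neighbours, but within each of the 6 libraries H2-Aa was above H2-Ab1 and H2-Ab1 above H2-Eb1. H2-DMa followed at 176 ± 26.4 and H2-DMb1 at 94.8 ± 11.5 FPKM.

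The other members were far lower. H2-DMb2 stood at 20.3 ± 5.30 and Ciita at 15.6 ± 3.39 FPKM, with overlapping ranges but H2-DMb2 above Ciita in 6 of 6 libraries. H2-Oa stood at 6.69 ± 1.51 and H2-Ob at 3.27 ± 0.520 FPKM. The order of the 10 genes was thus the same in each library, from the invariant chain and classical chains through H2-DM to Ciita and H2-O.

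**Figure D1:**
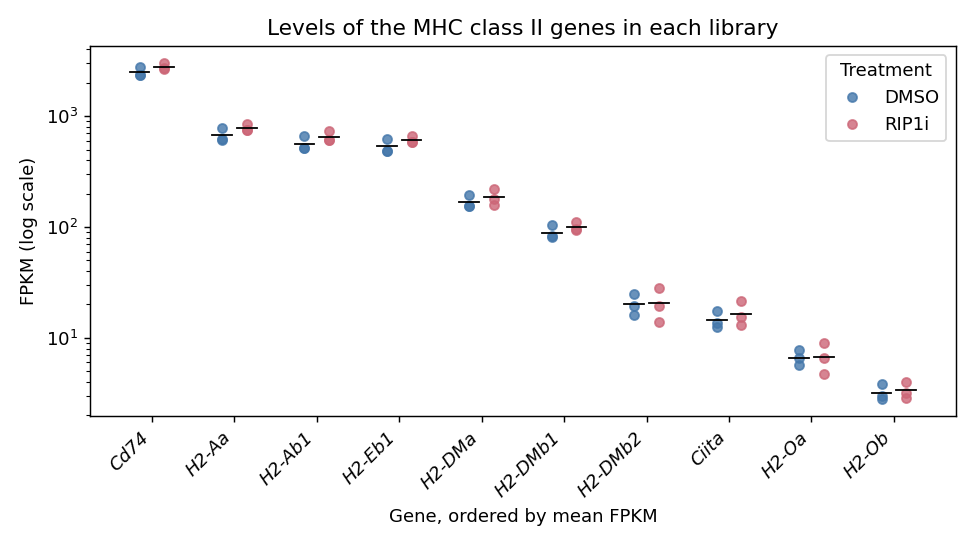
FPKM (log axis) of the 10 MHC class II genes in each of the 6 libraries, with DMSO points in blue and RIP1i points in red, each point 1 library and each black bar a group mean of 3. Cd74 is near 2645 FPKM and H2-Ob near 3.27, and the points of both groups overlap for every gene.

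H2-Ea, the missing partner of H2-Eb1, was nearly silent. Its row, H2-Ea-ps (chromosome 17, 34341959 to 34344645, minus strand), held 2 counts in DMSO replicate 3, 2 in RIP1i replicate 3 and 0 in the other 4 libraries. A count of 0 allows up to 3 counts, or 0.0663 to 0.0747 CPM (counts scaled by library size with TMM factors) depending on the library, counting error only. H2-Eb2, a further beta-chain gene beside it, had 8 to 28 counts per library. H2-Eb1, at 23363 to 33472 counts, was thus transcribed in cells whose alpha chain gene gave almost no reads.

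The cells carried transcripts known from macrophages, with Lyz2, the lysozyme gene, at 39866 to 54100 CPM. Itgax, which encodes CD11c and is shared by dendritic cells and GM-CSF macrophages, was at 1174 to 1402 CPM. B cells also express class II and H2-O strongly. Cd79a, which encodes a signalling chain of the B cell receptor, was near 0, with 0 to 4 counts in every library. Of the 8 B cell markers listed, however, 4 had enough counts to be tested. Among these 4, Ighm was at 18.9 to 24.9 CPM and Blnk at 23.3 to 34.4 CPM. The labels name no sort by cell type, and in such bulk RNA fewer cells of a type and less RNA per cell cannot be told apart.

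No member passed edgeR's quasi-likelihood test of RIP1i against DMSO. Over all 14857 genes tested, 0 had an adjusted p under 0.05 (0%), and 923 (6.21%) had an unadjusted p under 0.05. All 10 members passed the filter on low counts, 0 had an adjusted p under 0.05 and 0 an unadjusted p under 0.05. DESeq2 and limma-voom also called 0 of the members, and over all genes they called 2 and 0. The unadjusted count depended on the setting. For H2-Aa, unadjusted p was 0.051 in the main edgeR fit, 0.018 with DESeq2 and 0.042 with limma-voom. In edgeR it was 0.0026 without DMSO replicate 3, 0.16 without RIP1i replicate 2 and 0.086 with the replicate number as a block. The libraries of the 2 groups were fully apart for 0 of the 10 members and for 13.5% of all genes. The labels do not say whether replicates were separate cultures, so p-values measure only the spread between these libraries.

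The fitted direction was higher under RIP1i for 10 of 10 members, against 51% of all genes, with a median log2 fold change of 0.17 against 0.0026 over all genes. That count was 5 of 10 without RIP1i replicate 2. It was 7 without DMSO replicate 2 and 8 in the fit with the replicate number as a block. For H2-Aa, H2-Ab1, H2-Eb1, Cd74 and H2-DMb1 the fitted value stayed above 0 with any 1 library left out. For the other 5 it did not. Among the classical chains the value without RIP1i replicate 2 was 0.16 for H2-Aa, 0.11 for H2-Ab1 and 0.13 for H2-Eb1, and without DMSO replicate 3 it was 0.34, 0.33 and 0.32.

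**Figure D2:**
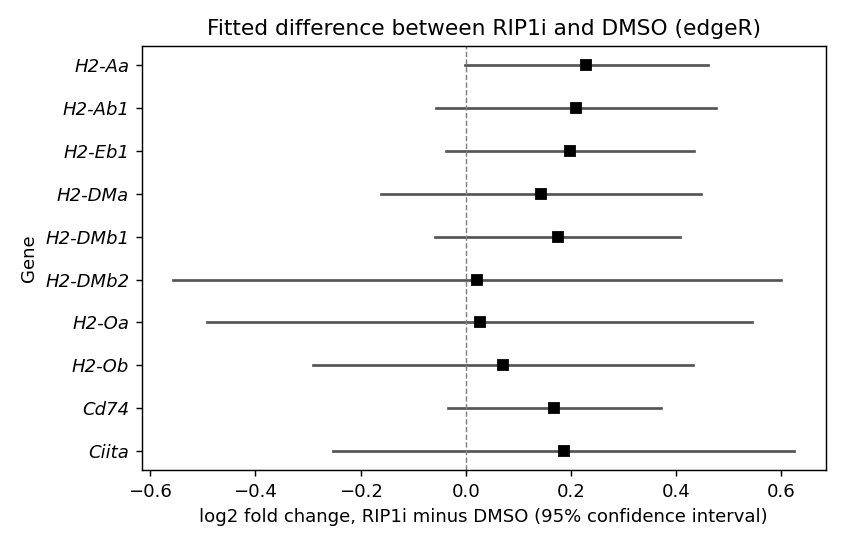
Fitted log2 fold change of each MHC class II gene, RIP1i minus DMSO (squares), with its 95% confidence interval (lines) from edgeR on 3 against 3 libraries. Every interval includes 0, from the narrow one of Cd74 (-0.035 to 0.37) to the wide one of H2-DMb2 (-0.56 to 0.60).

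Among the classical chains, H2-Aa (chromosome 17, 34282744 to 34287823, minus strand), the alpha chain of I-A, was at 1171, 1148 and 1457 CPM in DMSO replicates 1 to 3 and at 1419, 1588 and 1419 CPM in RIP1i replicates 1 to 3. DMSO replicates 1 and 2 were below every other library, while DMSO replicate 3 lay among the RIP1i libraries, so the groups overlapped. Its log2 fold change was 0.23 with a 95% interval from -0.0016 to 0.46 (edgeR adjusted p = 0.777), or 0.999-fold to 1.38-fold.

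H2-Ab1 (chromosome 17, 34257689 to 34269419, plus strand), the beta chain of I-A, was at 848, 845 and 1083 CPM with DMSO and 1007, 1199 and 1003 CPM with RIP1i. The order of libraries was nearly that of H2-Aa, and DMSO replicate 3 again exceeded RIP1i replicates 1 and 3. H2-Eb1 (chromosome 17, 34305867 to 34316674, plus strand), the beta chain of I-E, was at 582, 581 and 740 CPM with DMSO and 700, 784 and 699 CPM with RIP1i. It followed the I-A chains although its own alpha chain was all but absent. The 95% interval of its difference ran from -0.039 to 0.43 on the log2 scale.

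The chains held a nearly fixed proportion. The FPKM ratio of H2-Aa to H2-Ab1 was 1.19 ± 0.0157 under DMSO and 1.21 ± 0.0446 under RIP1i (SD, n = 3 each), and its highest library was 1.07-fold above its lowest. The ratio of H2-Eb1 to H2-Ab1 was 0.949 ± 0.00364 and 0.943 ± 0.0340. By comparison, H2-Aa itself spanned 1.38-fold over the 6 libraries.

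Cd74 (chromosome 18, 60803848 to 60812652, plus strand), which encodes the invariant chain, was at 3316, 3300 and 3940 CPM with DMSO and 3745, 4263 and 3857 CPM with RIP1i. DMSO replicate 3 lay between RIP1i replicates 2 and 3, and the groups overlapped. Its log2 fold change was 0.17 (-0.035 to 0.37), the narrowest interval of the set. Leaving out RIP1i replicate 2 gave 0.10, and leaving out DMSO replicate 3 gave 0.25. The FPKM ratio of Cd74 to H2-Aa, H2-Ab1 and H2-Eb1 summed was 1.44, 1.45 and 1.35 under DMSO and 1.35, 1.35 and 1.396 under RIP1i. In DMSO replicates 1 and 2, where the chains were lowest, the invariant chain was thus in the largest relative amount.

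Of the peptide loading genes, H2-DMb1 (chromosome 17, 34153072 to 34160230, plus strand), a beta chain of H2-DM, was at 121, 123.2 and 153 CPM with DMSO and 144, 164 and 140 CPM with RIP1i. It nearly kept the library order of the classical chains, with a log2 fold change of 0.17 (-0.058 to 0.41) that was 0.091 without RIP1i replicate 2 and 0.29 without DMSO replicate 3. H2-DMa (chromosome 17, 34119541 to 34139101, plus strand), the alpha chain, was at 255, 254 and 318 CPM with DMSO and 292, 359 and 262 CPM with RIP1i. Here RIP1i replicate 3 stood near the low DMSO libraries, and the log2 fold change was 0.14 (-0.16 to 0.45), or -0.0040 without RIP1i replicate 2.

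H2-DMb2 (chromosome 17, 34143307 to 34151555, plus strand), the neighbouring second beta-chain gene, was at 33.4, 27.8 and 42.5 CPM with DMSO and 33.2, 47.9 and 24.1 CPM with RIP1i. RIP1i held both the highest and the lowest library, 1.98-fold apart, the widest span of any member. The fitted difference was 0.021 (-0.56 to 0.60), and it was -0.28 when RIP1i replicate 2 was left out, -0.12 when DMSO replicate 2 was, and 0.23 when RIP1i replicate 3 was. The FPKM ratio of H2-DMb2 to H2-DMb1 was 0.239, 0.196 and 0.242 under DMSO and 0.2004, 0.253 and 0.149 under RIP1i, so the split between the paralogs shifted from library to library in both groups. Of the 50-base stretches in the GENCODE transcripts, 22.7% of those of H2-DMb1 and 25.9% of those of H2-DMb2 also occur in another gene, for H2-DMb1 only in H2-DMb2. How reads matching both were counted is not given in the sources used here, which makes their separate values uncertain.

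The H2-O chains, which restrain H2-DM, were weakly expressed. H2-Oa (chromosome 17, 34092340 to 34095234, plus strand), the alpha chain, was at 8.61, 7.44 and 10.1 CPM with DMSO and 8.60, 11.8 and 6.23 CPM with RIP1i, from 258 to 497 counts per library. Its highest and lowest libraries were again RIP1i replicates 2 and 3, as for H2-DMb2. The log2 fold change was 0.027 (-0.49 to 0.55), and it was -0.24, -0.079 and 0.22 when the same 3 libraries were left out in turn. H2-Ob (chromosome 17, 34238903 to 34254414, plus strand), the beta chain, was at 9.40, 8.86 and 11.96 CPM with DMSO and 10.04, 12.7 and 9.06 CPM with RIP1i, a log2 fold change of 0.071 (-0.29 to 0.43).

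Per length, the inhibitor stood far below its target. The FPKM of H2-Oa was 3.95% ± 0.280 of that of H2-DMa under DMSO and 3.59% ± 0.572 under RIP1i (SD, n = 3 each). By library it was 4.22%, 3.66% and 3.96% under DMSO and 3.69%, 4.10% and 2.97% under RIP1i, so the RIP1i values lay on both sides of the lowest DMSO value. The FPKM of H2-Ob was 3.57% and 3.32% of that of H2-DMb1 in the group means.

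Ciita (chromosome 16, 10480059 to 10528418, plus strand), the transactivator, was at 71.3, 66.4 and 92.2 CPM with DMSO and 80.5, 112 and 69.1 CPM with RIP1i. Of the RIP1i libraries, replicate 2 was the highest of all 6 and replicate 3 lay below DMSO replicate 1. The log2 fold change was 0.19 with a wide interval from -0.25 to 0.62 (0.839-fold to 1.54-fold). Leaving out RIP1i replicate 2 turned it to -0.046, and leaving out DMSO replicate 3 raised it to 0.34. The gene's alternative promoters are not separated in a count per gene.

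**Figure D3:**
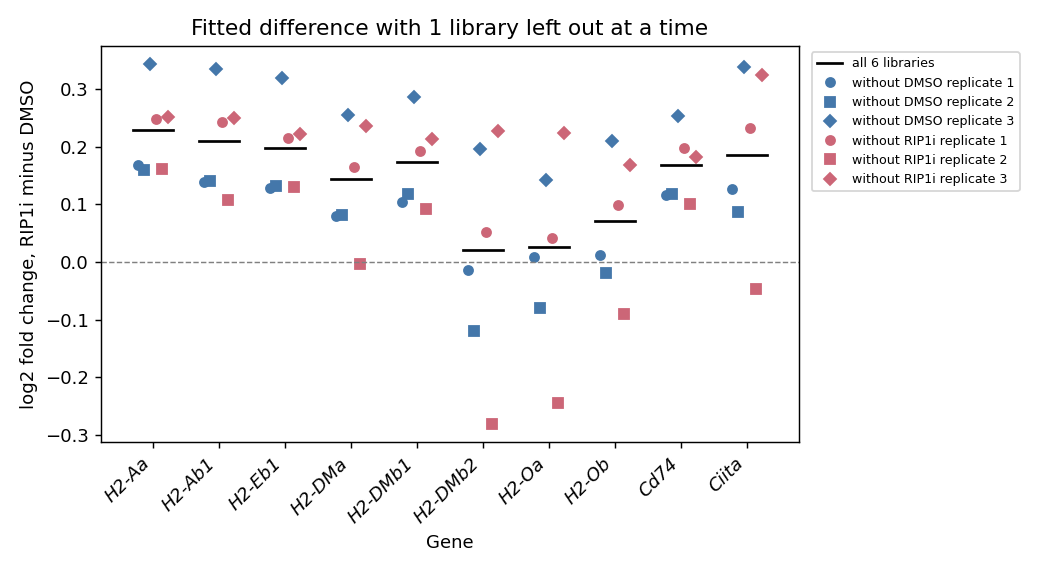
Fitted log2 fold change (RIP1i minus DMSO) of each MHC class II gene with all 6 libraries (black bar) and with 1 library left out (blue for DMSO, red for RIP1i, shape for replicate). Without RIP1i replicate 2 the values run from -0.28 for H2-DMb2 to 0.16 for H2-Aa, and without DMSO replicate 3 all 10 are above 0.

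The spread between libraries of 1 treatment was compared with the difference between treatments. The highest DMSO library exceeded the lowest by 1.19-fold (Cd74) to 1.53-fold (H2-DMb2), while the ratio of the RIP1i mean to the DMSO mean was 1.02 to 1.17. The span within DMSO exceeded that ratio for 10 of 10 members, against 81.6% of all genes tested, and the span within RIP1i did so for 8 of 10, against 84.6%. Over all 6 libraries the highest was a median 1.42-fold above the lowest among the members, and 1.23-fold among all genes tested.

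The members varied together across libraries. RIP1i replicate 2 was the highest library for 10 of 10 members and DMSO replicate 3 the next for each of them. The same top pair was seen in 2147 of 14857 genes (14.5%). DMSO replicate 2 was the lowest library for 7 members (19.2% of all genes), RIP1i replicate 3 for H2-DMb2 and H2-Oa (17.9%), and DMSO replicate 1 for H2-DMb1 (14.3%). The genes share their libraries, so these counts are a description.

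Within this common order the genes divided by how RIP1i replicate 3 behaved. On the log2 CPM scale, centred on each gene's mean over the 6 libraries, H2-Aa, H2-Ab1, H2-Eb1, Cd74 and H2-DMb1 were at 0.0024 to 0.064 in that library. H2-DMa was at -0.13, H2-Ob at -0.17, Ciita at -0.22, H2-Oa at -0.46 and H2-DMb2 at -0.49. The FPKM of Ciita was 1.74% of that of H2-Aa there, against 2.02% to 2.52% in the other 5 libraries. This division was seen in the values and was not tested.

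**Figure D4:**
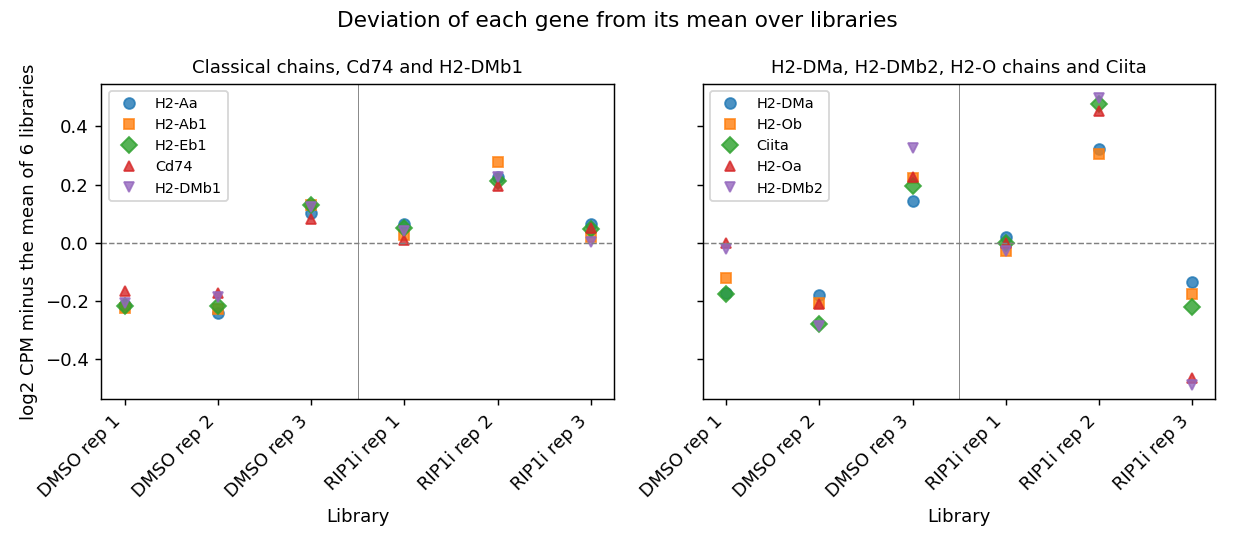
Deviation of each gene's log2 CPM from its own mean over 6 libraries, for DMSO replicates 1 to 3 and RIP1i replicates 1 to 3, the genes being divided over 2 panels after their values were seen. RIP1i replicate 2 is highest in both panels, and RIP1i replicate 3 is at 0.0024 to 0.064 on the left but -0.49 to -0.13 on the right.

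Markers of other cells varied across the same libraries. The sum of 10 stromal markers, among them the collagen genes Col1a1 and Col1a2, was 211, 369 and 93.1 CPM with DMSO and 241, 83.0 and 197 CPM with RIP1i, and none of the 10 was at 0 in all libraries. It was lowest in RIP1i replicate 2 and DMSO replicate 3, where the class II genes were highest, and highest in DMSO replicate 2. Of the 10 stromal markers, 9 were fitted lower under RIP1i and 0 passed. The sum of 9 neutrophil markers was 457, 226 and 624 CPM with DMSO and 464, 656 and 223 CPM with RIP1i, high and low in the same libraries as H2-DMb2 and H2-Oa. Of its 8 tested genes 7 were fitted higher and 0 passed, and Ngp, a granule gene of neutrophil precursors picked here with its values known, was at 78.3, 26.6 and 97.8 CPM with DMSO and 70.9, 99.8 and 35.5 CPM with RIP1i.

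The 10 dendritic cell markers summed to 1423, 1383 and 1543 CPM with DMSO and 1545, 1655 and 1488 CPM with RIP1i, most of it Itgax. Of 9 tested, 6 were fitted higher and 0 passed. Cd209a, which encodes a C-type lectin of monocyte-derived dendritic cells and was picked with its values known, was at 6.77, 4.53 and 12.3 CPM with DMSO and 6.57, 18.6 and 5.77 CPM with RIP1i. The sum of 10 macrophage markers, almost all of it Lyz2, was 51245 to 59032 CPM with DMSO and 44528 to 53970 CPM with RIP1i, lowest in RIP1i replicate 2. Of these 10 genes 1 was fitted higher, 9 lower and 0 passed. The 8 B cell markers summed to 50.4 to 57.7 CPM with DMSO and 46.4 to 54.9 CPM with RIP1i, nearly all of it from Blnk and Ighm, and of 4 tested 1 was fitted higher, 3 lower and 0 passed. The part of these cell types in the class II values was not tested. DMSO replicate 2 and RIP1i replicate 2 had the highest and lowest stromal sums. Without both, the log2 fold change was 0.098 for H2-Aa, 0.054 for Cd74 and -0.14 for Ciita, and 5 of 10 members were fitted higher. RIP1i replicate 2 was also the highest library for 10 of 10 members and DMSO replicate 2 the lowest for 7. Leaving both out thus lowers these values whatever the stromal content, and is no test of it.

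**Figure D5:**
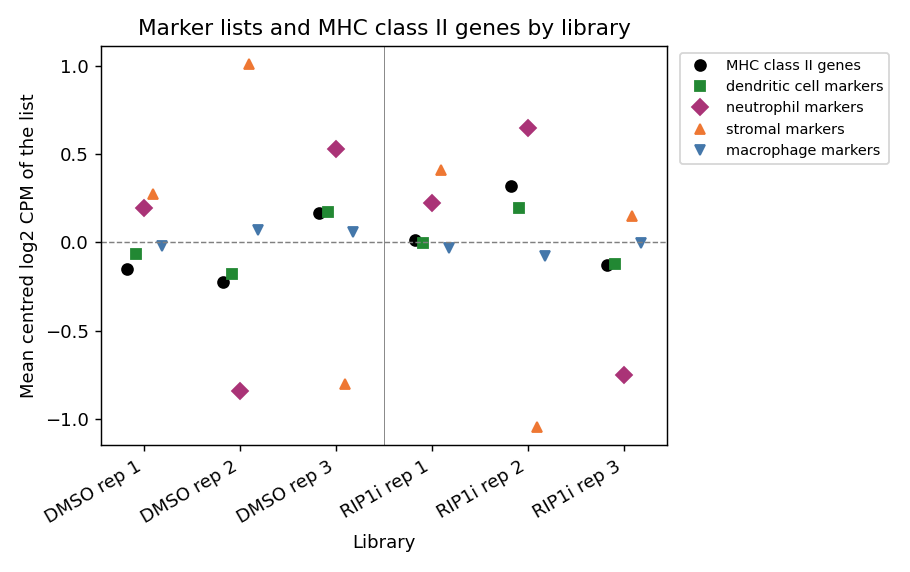
Mean centred log2 CPM of the MHC class II genes and of 4 marker lists in each library (1 point per list and library). The class II level is highest in RIP1i replicate 2 (0.32) and DMSO replicate 3 (0.17), where the stromal level is lowest (-1.04 and -0.80).

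The factors that hold Ciita at class II promoters were split in direction. Of 10 such genes, the RFX, NF-Y and CREB factors and their coactivators, 5 were fitted higher and 5 lower, 0 passed and 1 had an unadjusted p under 0.05. That was Creb1, a factor of the X box region, at 46.6 ± 2.02 CPM with DMSO and 52.7 ± 3.19 CPM with RIP1i (SD, n = 3). The fitted difference was 0.18 on the log2 scale (0.046 to 0.31, edgeR adjusted p = 0.777). Rfx5, a subunit of the RFX complex, was at 14.2 to 15.7 CPM with DMSO and 14.2 to 16.2 CPM with RIP1i. The coactivator gene Ep300 had -0.17 (-0.37 to 0.038), and Rfxank, another RFX subunit, -0.061 (-0.17 to 0.052).

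On the interferon gamma route to Ciita, Ifng itself had 0 counts in all 6 libraries. Of the 9 tested genes of that list 4 were fitted higher and 5 lower, with 0 past the test and a median of -0.017. The receptor chain Ifngr1 had a log2 fold change of -0.069 (-0.20 to 0.061) and the interferon regulatory factor Irf2 -0.20 (-0.42 to 0.026). Jak2, a kinase of the interferon gamma and GM-CSF receptors picked with its values known, was at 209, 179 and 260 CPM with DMSO and 226, 309 and 198 CPM with RIP1i. Its order of libraries was the same as that of Ciita.

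Genes of the GM-CSF and IL-4 route and of Ciita control were split into 6 fitted higher and 4 lower, with 0 past the test. Irf4, a transcription factor of GM-CSF-grown myeloid cells, was at 107 ± 15.1 CPM with DMSO and 128 ± 14.1 CPM with RIP1i (SD, n = 3), with a log2 fold change of 0.26 (-0.0042 to 0.52). Irf8, another factor of myeloid cells, was at -0.092 (-0.19 to 0.0019), and the receptor gene Il4ra was at -0.065 (-0.15 to 0.021).

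The genes listed for antigen and invariant chain processing were fitted higher in 10 of 10, against 51% of all genes. Their median was only 0.057, with 0 past the test. Ctsl, which encodes cathepsin L, was at 971 ± 10.6 CPM with DMSO and 1025 ± 7.18 CPM with RIP1i (SD, n = 3). Its groups did not overlap, as in 13.5% of all genes, and its log2 fold change was 0.078 (-0.014 to 0.17). Among genes of the other lists, Creb1 was also fully apart, higher under RIP1i, and Rfxank, Irf8, Il4ra and Ighm were apart, lower under RIP1i. Ctss, the cathepsin S gene, whose protease cuts the invariant chain, was at 10583 to 10952 CPM with DMSO and 10557 to 12113 CPM with RIP1i. Sppl2a, which encodes an intramembrane protease that also acts on the invariant chain, had 0.11 (-0.059 to 0.28). Cst3, the gene of the protease inhibitor cystatin C, had 0.066 (-0.057 to 0.19). The list's mean centred level was -0.017 in RIP1i replicate 2, where the class II genes were highest, and 0.069 in RIP1i replicate 3.

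The genes whose library profile lay closest to that of H2-Aa, H2-Ab1, H2-Eb1 and Cd74 were Csf2rb2, Cep55, Batf, Prr15 and Tyro3, out of 8302 other genes at 10 CPM or more. The measure was the root mean square difference of centred log2 CPM over the 6 libraries, with 0.039 for Csf2rb2 and 0.055 for Tyro3 against a median of 0.17 for all 8302. Csf2rb2 encodes a beta chain of the IL-3 receptor, close kin of the GM-CSF receptor chain Csf2rb, and stood at -0.25, -0.18 and 0.11 under DMSO and 0.040, 0.29 and -0.0082 under RIP1i. The reference profile was -0.20, -0.22 and 0.11 under DMSO and 0.037, 0.23 and 0.045 under RIP1i. The likeness rests on 6 libraries and is a description.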

How the data were processed

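The authors deposited raw read counts per gene and FPKM values for 3 DMSO and 3 RIP1i libraries, which were grouped by sample title. The submitters' processing notes name mm10, STAR 2.5.3a, Subread 1.4.6-p3, featureCounts, CASAVA 1.8.4 and DESeq2 1.14.0. Annotation, strand setting and multi-mapping are not stated in these notes. Reads of antisense partners cannot be told apart without strand: H2-DMa shares 360 exon bases with Brd2, H2-Oa 321 with BC051537 (0 to 3 counts) and Ciita 329 with Dexi. In 2411 genes the deposited FPKM equalled the counts times 1 factor per gene and 1 factor per library, to within 0.0447%. The library factors differed from median-of-ratios scaling by at most 0.000145%. FPKM served for levels between genes.

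Totals were 40264902 to 44862310 counts per library, with TMM factors from 0.978 to 1.01. After filterByExpr (minimum count 10, minimum total 15), 14857 genes were tested 2-sided with edgeR 4.0.16 (quasi-likelihood, R 4.3.3), with treatment as the only term, Benjamini-Hochberg adjustment over all of them and a threshold of 0.05. The code was tested on simulated counts. Alternatives were other scalings and filters (none, or 1 CPM in 3 libraries), DESeq2 1.42.0, limma 3.58.1 (voom, and trend on FPKM with a pseudocount of 1 or 0.1), a replicate block and each library left out. Centred log2 CPM used a prior count of 2.

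Members and lists were chosen with earlier results of these data known. The rule for named genes took the 10 members, the 3 genes of each other list with the smallest p, H2-Ea-ps, H2-Eb2, marker checks (among them Lyz2, Itgax, Cd79a and Col1a1) and the 5 closest profiles. Not every gene it takes is reported here. Among the genes outside it are Rfx5, Ctss, Col1a2 and Ifng, those said to be picked with their values known, and those of the further profile search. Ubiquitin ligases of the March family were not used, as their symbols had become dates.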

Additional observations from a re-analysis of the deposited data

How the results depend on the processing

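Across 17 alternatives, 170 values of member log2 fold changes were obtained, of which 146 kept their sign, 24 reversed and none passed the threshold (adjusted p from 0.602 to 1). The number of members called was 0 in every alternative. The number of genes called was 0 with edgeR and all 6 libraries, 2 with DESeq2 and 4 with limma-trend on log2(FPKM + 1) without a filter, and 0 with any 1 library left out. The cause of the differences between tools was not tested. The number of members fitted higher ranged from 5 to 10 with 1 library left out. It was 5 without both libraries of extreme stromal marker level, an alternative chosen after seeing the data. That alternative also takes out the highest library of every member, so it is no test of stromal content. In that alternative H2-DMa was at -0.062, H2-DMb2 at -0.42, H2-Oa at -0.35, H2-Ob at -0.17 and Ciita at -0.14. With 1 library left out, H2-DMa ranged from -0.0040 to 0.26, H2-DMb2 from -0.28 to 0.23, H2-Oa from -0.24 to 0.22, H2-Ob from -0.089 to 0.21 and Ciita from -0.046 to 0.34. H2-DMb2 and H2-Oa, fitted close to 0, also turned to -0.016 and -0.015 with limma-voom, -0.013 and -0.0061 with log2(FPKM + 1) with and without a filter, and -0.015 and -0.012 with log2(FPKM + 0.1). With the replicate number as a block they were at -0.010 and -0.0069, 8 members were fitted higher and 0 genes were called. The numbers gave no sign of pairing: across genes, deviations of same-numbered libraries correlated at 0.0058, -0.53 and -0.48, while DMSO replicate 3 and RIP1i replicate 2 reached 0.60. With 3 libraries a group, the width of the interval differed between members. The lowest limit of any member was 0.680-fold, for H2-DMb2, and the highest was 1.54-fold, for Ciita. The interval of Cd74 ran from 0.976-fold to 1.29-fold and that of H2-Aa from 0.999-fold to 1.38-fold. Each interval gives the differences compatible with the values of its own gene, and is not a limit of detection.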

Other observations

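A further search, chosen after the values were seen, took the mean centred profile of Ciita, H2-DMb2 and H2-Oa, the members with the lowest centred values in RIP1i replicate 3 (-0.22 to -0.49). The 5 closest of the same 8302 genes were Nup210, Cdh1, Vrk1, Galnt3 and Acap1, with root mean square differences of 0.026 to 0.059 against a median of 0.30. Cdh1, which encodes the adhesion protein E-cadherin, stood at -0.075, -0.25 and 0.24 in DMSO and -0.021, 0.42 and -0.32 in RIP1i. Nup210, a nuclear pore gene, stood at -0.057, -0.23 and 0.24 in DMSO and -0.0014, 0.42 and -0.38 in RIP1i. None of the 5 is among the 5 genes closest to the classical chains and Cd74. The 2 reference profiles differ by choice, at 0.045 and -0.39 in RIP1i replicate 3. Separate lists thus follow from how the references were built, and say nothing on whether the members divide.

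Socs1, a feedback inhibitor of JAK kinases, was at 27.9, 25.9 and 38.2 CPM in DMSO and 32.5, 45.05 and 27.9 CPM in RIP1i. Adgre1, which encodes the macrophage antigen F4/80, was at 554, 519 and 650 CPM in DMSO and 570, 711 and 511 CPM in RIP1i, high in the same 2 libraries as the class II genes, and is the 1 of 10 macrophage markers that was fitted higher under RIP1i. Cd14, the lipopolysaccharide co-receptor gene, was at 218, 269 and 155 CPM in DMSO and 209, 120 and 258 CPM in RIP1i, and so lowest in those 2 libraries. These 3 genes were picked with their values known.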
